A study of Mus musculus with 6 samples.

Results

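Transcripts of myeloid cells were followed in cultures of synovial fibroblasts (SFs), which form the soft tissue lining of joints together with resident macrophages. The set held 41 genes, among them general leukocyte genes, macrophage receptors and enzymes of phagocytes, picked by gene name from the 49548 genes of the deposited expression table. Where a name was carried by more than 1 gene, the gene with the highest mean was taken. All 41 genes were found, and 36 of them passed the filter on low values, which asked for a normalised count of 10 or more in 3 libraries or more. The SFs came from ankle joints of CBA C57BL/6J mice, 8 weeks of age, that carry a human TNF transgene (hTNFtg) and develop a chronic destructive polyarthritis. There were 3 untreated libraries and 3 libraries of hTNFtg SFs given 500 μM amisulpride, an antagonist of dopamine and serotonin receptors used in psychiatry, for 48 h, so both groups carried the transgene and no wild-type library was compared. The labels call the controls untreated, whereas the methods speak of vehicle. The joints had been digested with collagenase, and cells bearing CD45 on their surface had been removed with antibody-coated beads at passage 1. The transcripts described here were thus measured in cultures that had been depleted of leukocytes. Which cells made them was not tested.

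Macrophages and monocytes arise from progenitors under the control of the transcription factor PU.1, the product of Spi1, and depend on signals through the CSF1 receptor, the product of Csf1r. They sense damage and microbes through receptors that signal by way of the adaptors DAP12 (Tyrobp) and the Fc receptor gamma chain (Fcer1g), both of which carry an immunoreceptor tyrosine-based activation motif (ITAM). In the joint, macrophages form part of the synovial lining beside the fibroblasts, and related precursors give rise to the osteoclasts that resorb bone.

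Values are normalised counts, that is, reads per gene as normalised by the authors and rounded to whole numbers. They were taken as reads divided by 1 factor for each library, which could not be checked in untreated replicate 1. Libraries were made from the 3′ ends of transcripts, so no correction for gene length was applied. The library totals ranged from 3832980 to 4504242 normalised counts. The value of a single read could be estimated in 5 libraries, where it gave approximate depths of 2.52 to 4.72 M reads, and could not be estimated in untreated replicate 1. Amisulpride replicates 2 and 3 were the shallowest of the 5, at 2.94 and 2.52 M reads. The depth was 3.63 and 4.72 M in untreated replicates 2 and 3 and 4.40 M in amisulpride replicate 1. A read was worth 1.34 and 1.79 normalised counts in amisulpride replicates 2 and 3. The part of depth in the differences was not tested. For a gene listed at 0 in those 5 libraries, a count of 0 allows an expected level of up to 3 reads, which is 2.50 to 5.37 normalised counts, and these limits cover counting error only. Fold changes are amisulpride over untreated, on the scale log2(normalised count + 1), followed by their standard error, and p-values are from limma over the 12614 genes that passed the filter. The methods call the 3 samples of each group biological replicates.

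The myeloid transcripts were a small share of each library. Summed over the 41 genes, the untreated libraries held 8423, 4088 and 4885 normalised counts in replicates 1, 2 and 3, and the amisulpride libraries held 7203, 3737 and 4598. This was 0.211%, 0.107% and 0.124% of the library total in the untreated and 0.183%, 0.0950% and 0.102% in the amisulpride libraries. Replicate 1 stood above the other two in both groups, and the groups overlapped. The sum of 25 fibroblast markers (collagens, Pdgfra, Pdpn and others) ranged from 104922 to 151798 normalised counts. Set against it, the myeloid sum was 8.03%, 3.47% and 3.71% without the drug and 6.78%, 3.09% and 3.03% with it. Not all of these markers are particular to fibroblasts. S100a4, also made by macrophages, gave 29324, 24374 and 25274 of the marker sum untreated and 13948, 10468 and 8035 with amisulpride.

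The mean summed level was 5798.7 ± 2307.4 normalised counts in untreated SFs and 5179.3 ± 1804.6 with amisulpride (SD, n = 3), a log2 difference of the means of -0.15 on the logarithmic scale. The amisulpride library held 0.855, 0.914 and 0.941 times the sum of the untreated library with the same number, so the difference had the same sign in all 3 numbers and was smaller than the distance between replicate 1 and the others. Without untreated replicate 1 the log2 difference became 0.16, and without amisulpride replicate 2 it became 0.06. Lyz2, the lysozyme of macrophages and the member with the highest level, set much of the sum. Without Lyz2 the ratios were 0.728, 0.789 and 1.19, so that replicate 3 then went the other way. In bulk RNA fewer myeloid cells and less RNA per myeloid cell cannot be told apart, and a part made by the fibroblasts themselves was not tested.

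**Figure D1:**
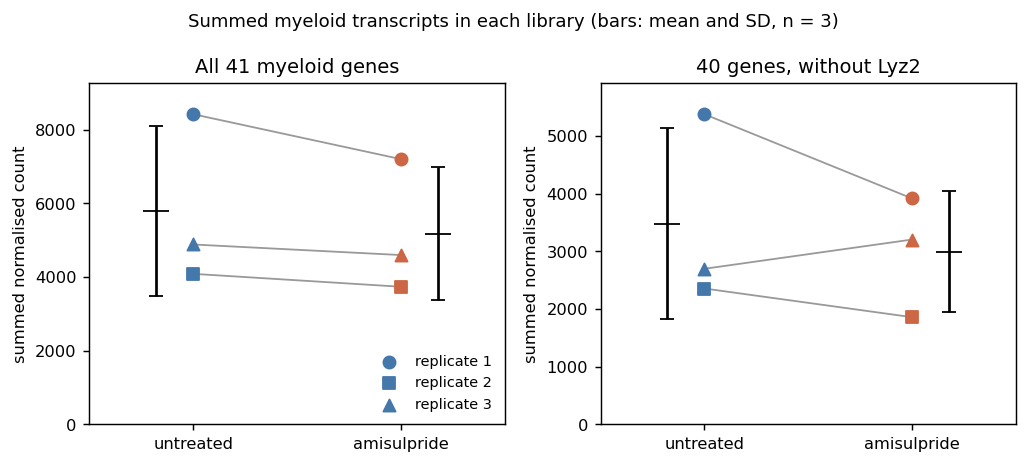
Summed normalised counts of the myeloid genes in each of the 6 libraries, for all 41 genes (left) and without Lyz2 (right), with lines joining libraries of the same replicate number and bars for the mean and SD of 3 libraries. Replicate 1 held 8423 and 7203 normalised counts over all 41 genes, above the range of 3737 to 4885 in the other 4 libraries.

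Genes that define other blood and vessel cells were mostly at or near 0. None of the 8 B cell markers and 1 of the 16 T cell and NK markers (Cd3d, a chain of the T cell receptor complex, at 30, 26 and 18 normalised counts untreated and 16, 33 and 11 with amisulpride) passed the filter, and Cd3e, Cd3g, Cd8a and Cd2 were listed at 0 in all 6 libraries. Their summed levels were 0 to 1 normalised counts for the B cell list, and 31 to 45 untreated against 11 to 34 with amisulpride for the T cell and NK list. Of 10 endothelial markers only Egfl7, at 66, 84 and 78 untreated and 50, 59 and 25 with amisulpride, passed, while Cdh5, Cldn5 and Tie1 were listed at 0 throughout, and the list summed to 78 to 98 normalised counts untreated and 27 to 67 with amisulpride.

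Of 11 neutrophil markers 3 passed. Elane, which encodes neutrophil elastase, stood at 1057, 1543 and 1173 normalised counts untreated and 875, 1610 and 1081 with amisulpride, although Mpo, Ly6g, Ngp and S100a9 were listed at 0 in all 6 libraries. Elane therefore made up most of that list's sum of 964 to 1679 normalised counts. Camp, which encodes the cathelicidin peptide, had 46, 51 and 31 normalised counts untreated and 19, 27 and 5 with amisulpride (log2 fold change -1.51 ± 0.55, limma adjusted p = 0.315). Its log2 fold change was -0.85 without amisulpride replicate 3. Of 9 mast cell and basophil markers only Mcpt8, a basophil protease gene, passed the filter. Its normalised counts were 486, 425 and 327 untreated and 96, 68 and 72 with amisulpride (log2 fold change -2.37 ± 0.27, limma adjusted p = 0.0081). Cpa3, Fcer1a, Ms4a2 and Tpsb2 of the same list were listed at 0 throughout, and the part of these other cell types in the myeloid values was not tested.

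The myeloid genes differed between replicate numbers in both groups. Among the 36 genes that passed the filter, untreated replicate 1 was the highest of the untreated libraries for 33 genes, against 36.7% of all genes tested, and amisulpride replicate 1 was the highest of its group for 23, against 31.6%. Replicate 1 was highest in both groups for 20 of the 36 genes, or 55.6%, compared with 13.9% of all genes tested and with 3 of 25 fibroblast markers. Amisulpride replicate 2 was the lowest library of its group for 24 genes, against 30.5% of all. On the log2 scale, after each gene was centred on its mean, the median member lay at 0.69, -0.37 and -0.17 in the untreated and at 0.35, -0.46 and -0.02 in the amisulpride libraries. The root mean square distance of single members from this profile ranged from 0.22 to 0.96 with a median of 0.47.

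**Figure D2:**
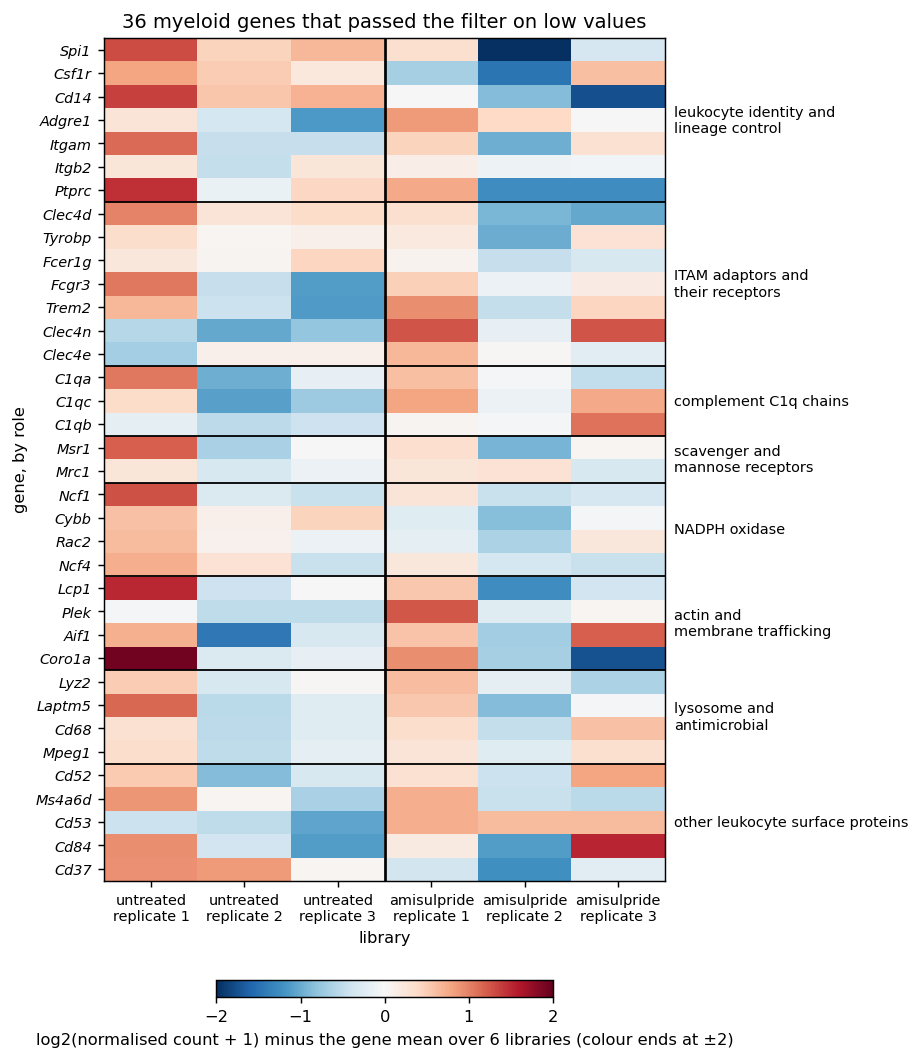
Each row is 1 of the 36 myeloid genes that passed the filter, grouped by role, and each column a library, with the colour giving log2(normalised count + 1) minus the gene's mean over 6 libraries. The first untreated column is red for most genes, and untreated replicate 1 was the highest of the untreated libraries for 33 of them.

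Laptm5, Lcp1 and Coro1a are examples of the difference between replicates. Laptm5, a lysosomal membrane protein gene of blood cells, had 1314, 407 and 500 normalised counts untreated and 865, 324 and 574 with amisulpride. Lcp1, which encodes the actin-bundling protein L-plastin, had 489, 128 and 171 untreated and 250, 72 and 132 with amisulpride. In both genes replicate 1 was the highest library of each group, and neither passed the test (log2 fold changes of -0.24 ± 0.45 and -0.72 ± 0.52). Coro1a, which encodes an actin regulator of leukocytes, had 101, 21 and 23 untreated and 50, 16 and 7 with amisulpride. Its annotated gene overlapped 26 bases of Bola2 on the opposite strand, a gene with a mean of 564 normalised counts, and reads from this overlap may have been counted for either gene.

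Amisulpride against untreated SFs asked whether the drug changed the transcripts of these cells. The 36 myeloid genes did not share a direction. Their fold changes had a median of -0.14 (log2), with 20 genes lower and 16 higher, while the median over all 12614 genes tested was 0.00 and 49.9% of them were lower. At an adjusted p under 0.05 limma called 0 of the 36 members (0.285% of all genes tested), and at an unadjusted limma p under 0.05 there were 6 lower (5.77%) and 3 higher (5.11%).

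By the rule of a log2 fold change of at least 1 in size with an unadjusted limma p under 0.05, called the fold rule from here on, 5 members were lower with amisulpride (Cd14, Spi1, Clec4d, Csf1r and Cd37) and 2 were higher (Clec4n and Cd53). The background of this rule was 3.01% of all genes lower and 2.69% higher. Every amisulpride value lay under every untreated value in 4 of the 36 genes (Cd14, Spi1, Cybb and Cd37), against 8.66% of all genes, and over it in 3 (C1qb, Clec4n and Cd53), against 7.80%. Libraries with the same replicate number deviated together over all genes tested. Over the 36 members alone their deviations correlated at 0.34, 0.21 and 0.02 in numbers 1, 2 and 3, against -0.31 to 0.09 for differently numbered libraries, so the pairing was not seen among the members in number 3. With the replicate number as a block limma called 3 members at an adjusted p under 0.05, against 2.08% of all genes. These were Cd14 (adjusted p = 0.0120), Spi1 (0.0260) and Clec4n (0.0399). Under the block Cd37 no longer met the fold rule (limma unadjusted p = 0.0515) and Ptprc newly met it (limma unadjusted p = 0.0360). The 5 lower calls of the fold rule dropped to 1 without untreated replicate 1 and also without amisulpride replicate 2, and to 3 without untreated replicate 2 or 3. The 2 higher calls became 4 without untreated replicate 1 and numbered 3 without amisulpride replicate 2 or 3.

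**Figure D3:**
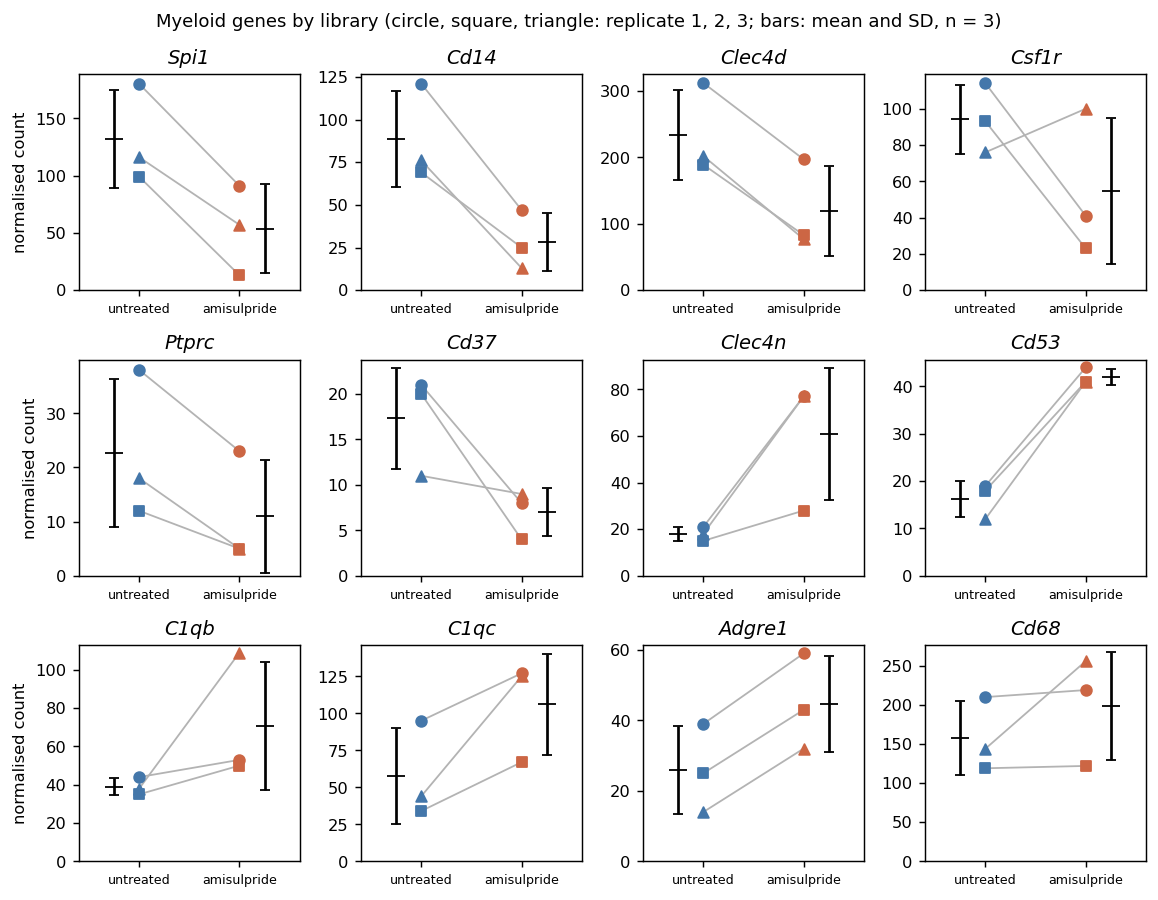
Normalised counts of 12 myeloid genes in the 6 libraries, with grey lines joining the same replicate number and bars for the mean and SD of 3 libraries. Spi1, Cd14 and Cd37 lay lower in every amisulpride library than in any untreated one, and Clec4n, Cd53 and C1qb lay higher.

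Genes of leukocyte identity and lineage control held most of the lower calls. Of 7 such genes 6 were lower, against 49.9% of all genes tested, with a median log2 fold change of -1.01. The fold rule called 3 of them lower, against 3.01% of all. Only 3 (Spi1, Cd14 and Ptprc) were lower in all 3 replicate numbers, against 17.8% of all, and Itgam (-0.15) and Itgb2 (-0.01) lay near 0. Spi1 (ENSMUSG00000002111, mm10 chromosome 2, 91082390 to 91115756, plus strand) had 180, 99 and 116 normalised counts untreated and 91, 13 and 57 with amisulpride. Every amisulpride value lay under every untreated value, although 91 came near 99. The log2 fold change was -1.61 ± 0.57 (limma adjusted p = 0.306, or 0.0260 with the replicate block). Leaving out untreated replicate 1 gave -1.36 (limma unadjusted p = 0.0774) and leaving out amisulpride replicate 2, the library with 13 normalised counts, gave -0.81 (limma unadjusted p = 0.0493).

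Cd14 (ENSMUSG00000051439, chromosome 18, 36725074 to 36726736, minus strand) encodes the lipopolysaccharide co-receptor of monocytes and macrophages. It had 121, 69 and 76 normalised counts untreated and 47, 25 and 13 with amisulpride, and the groups did not overlap. The log2 fold change was -1.74 ± 0.44 (limma adjusted p = 0.144, or 0.0120 with the replicate block). It stayed between -2.19 and -1.30 when each library was left out in turn, and the fold rule was met each time.

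Csf1r (ENSMUSG00000024621, chromosome 18, 61105572 to 61132149, plus strand) had 114, 93 and 76 normalised counts untreated and 41, 23 and 100 with amisulpride. Replicates 1 and 2 were lower and replicate 3 was higher, so the groups overlapped, and the log2 fold change was -1.01 ± 0.46 (limma adjusted p = 0.456). Of the libraries left out in turn, only the removal of amisulpride replicate 3 left the fold rule met, and the log2 fold change was -0.53 without amisulpride replicate 2. The gene overlaps 871 bases of Hmgxb3 on the opposite strand, which had a mean of 67.3 normalised counts.

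Ptprc, which encodes CD45 itself, the protein used for the depletion, had 38, 12 and 18 normalised counts untreated and 23, 5 and 5 with amisulpride. It was lower within each replicate number (log2 fold change -1.16 ± 0.66, limma adjusted p = 0.562, or 0.297 with the replicate block), but untreated replicate 2 and amisulpride replicate 1 crossed, and the values in amisulpride replicates 2 and 3 were near the limit of 3 reads. With amisulpride Ptprc reached the filter's limit of 10 in replicate 1 only, so it passed through its untreated values. Without amisulpride replicate 1 the log2 fold change of Ptprc was -1.83 and met the fold rule (limma unadjusted p = 0.0159). Itgam, the integrin chain CD11b, had 68, 22 and 22 untreated and 42, 15 and 38 with amisulpride, and its log2 fold change of -0.15 ± 0.53 became 0.38 without untreated replicate 1 and 0.30 without amisulpride replicate 2. Of the 40-base words near its transcript ends 31.4% also occur in other genes, with Gm49368 sharing the most, so its reads may have been divided. Itgb2, the integrin chain CD18 that pairs with it, had a log2 fold change of -0.01 ± 0.36.

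Adgre1, which encodes F4/80, the classic surface marker of mouse macrophages, was the only gene of this group with a log2 fold change above 0. It had 39, 25 and 14 normalised counts untreated and 59, 43 and 32 with amisulpride, and was higher within each of the 3 replicate numbers, though the groups overlapped (log2 fold change 0.83 ± 0.43, limma adjusted p = 0.518). It met the fold rule without untreated replicate 1 (1.17, limma unadjusted p = 0.0272) and without amisulpride replicate 3 (1.04, limma unadjusted p = 0.0363), and was 0.46 at the lowest when each library was left out in turn.

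PU.1 binds purine-rich sites with the core GAGGAA, which makes the promoters of the members a natural place to show sequence. RefSeq promoters (GRCm38.p6, the 250 bases before the start site) were found for 28 of the 41 members, and Adgre1, C1qa, Cd14, Cd52, Clec4n, Csf1r, Itgb2, Ms4a6d, Msr1, Ncf4, Rac2, Spi1 and Tyrobp were not matched. The letters GAGGAA, or TTCCTC for the other strand, were present in 17 of the 28, or 60.7%. They were present in 23.1% of all 27025 promoters of the same length and in 21.8% of the 8628 promoters of genes tested that were not members. The longer run GAGGAAGT, or ACTTCCTC for the other strand, which contains the first, was present in 2 of the 28 (C1qc and Cd37), or 7.14%, and in 2.42% of all promoters. A match is a run of letters and not a measured binding site. The promoters shown are those of 2 members that were lower by the fold rule (Clec4d and Cd37), of 1 that was higher by it (Cd53) and of 1 complement gene that was higher in all replicate numbers (C1qc), each read 5′ to 3′ toward the start site with GAGGAA or TTCCTC in capitals.

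Clec4d promoter, chr6:123261857-123262106, plus strand: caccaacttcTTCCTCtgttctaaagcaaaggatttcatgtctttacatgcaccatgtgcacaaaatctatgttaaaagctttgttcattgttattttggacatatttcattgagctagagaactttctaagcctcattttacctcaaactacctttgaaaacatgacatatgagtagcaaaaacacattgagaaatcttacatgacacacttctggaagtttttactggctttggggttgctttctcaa
Cd37 promoter, chr7:45238840-45239089, minus strand: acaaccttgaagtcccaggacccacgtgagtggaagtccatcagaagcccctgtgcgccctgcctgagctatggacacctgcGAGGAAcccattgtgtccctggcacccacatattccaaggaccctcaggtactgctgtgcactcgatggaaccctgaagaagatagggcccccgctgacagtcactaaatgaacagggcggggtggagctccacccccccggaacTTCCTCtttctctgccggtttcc
Cd53 promoter, chr3:106790150-106790399, minus strand: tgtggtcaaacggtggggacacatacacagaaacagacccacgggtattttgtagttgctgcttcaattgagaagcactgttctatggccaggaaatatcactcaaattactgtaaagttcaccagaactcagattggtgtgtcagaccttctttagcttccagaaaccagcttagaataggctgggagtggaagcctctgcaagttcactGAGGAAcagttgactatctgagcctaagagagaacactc
C1qc promoter, chr4:136892915-136893164, minus strand: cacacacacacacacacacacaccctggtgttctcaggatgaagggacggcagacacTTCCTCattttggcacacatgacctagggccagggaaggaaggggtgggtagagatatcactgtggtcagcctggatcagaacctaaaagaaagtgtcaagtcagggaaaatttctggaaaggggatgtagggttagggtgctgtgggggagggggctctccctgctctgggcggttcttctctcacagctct

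The run began 240 bases before the RefSeq start site in Clec4d and 168 and 23 bases before it in Cd37. It began 39 bases before that site in Cd53 and 193 bases before it in C1qc. By the deposited gene coordinates, however, the stretch shown for Cd37 lay within the gene and that for C1qc lay partly within it. The promoters shown all held the run, so they do not stand for members without it. Of the matched members lower in all 3 replicate numbers, Cd37, Clec4d and Ptprc held it, and Coro1a, Cybb, Fcer1g and Lcp1 did not. The matched members higher in all 3 (C1qb, C1qc, Cd53, Cd68 and Plek) all held it. A link between the run and the direction was not tested.

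The ITAM adaptors and the receptors that use them split in direction. Of 7 tested genes 3 were lower and 4 higher, with a median log2 fold change of 0.31, and the fold rule called 1 in each direction. The 2 called genes are neighbours in a cluster of C-type lectin receptors on chromosome 6. Clec4d (ENSMUSG00000030144, chromosome 6, 123262111 to 123275265, plus strand), which encodes the receptor MCL for mycobacterial and fungal glycolipids, had 312, 189 and 202 normalised counts untreated and 197, 83 and 77 with amisulpride. Amisulpride replicate 1 lay between the untreated values, so the groups overlapped, and each replicate number was lower with the drug. The log2 fold change was -1.07 ± 0.37 (limma adjusted p = 0.289, or 0.0503 with the replicate block). It became -0.85 when untreated replicate 1 was left out, -0.88 when amisulpride replicate 2 was and -0.83 when amisulpride replicate 3 was, and in these cases the gene no longer met the fold rule.

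Clec4n (ENSMUSG00000023349, chromosome 6, 123229843 to 123247021, plus strand) encodes Dectin-2, a receptor for fungal mannans. It had 21, 15 and 18 normalised counts untreated and 77, 28 and 77 with amisulpride, with no overlap of the groups. The log2 fold change was 1.57 ± 0.44 (limma adjusted p = 0.183, or 0.0399 with the replicate block). It lay between 1.34 and 2.05 when each library was left out in turn. Clec4e, which encodes the related receptor Mincle and lies on the other side of Clec4d, ranged from 10 to 27 normalised counts, with a log2 fold change of 0.31 ± 0.46.

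Both adaptors were detected in every library. Tyrobp had 190, 153 and 159 normalised counts untreated and 170, 74 and 181 with amisulpride, and its log2 fold change of -0.34 ± 0.34 became 0.07 without amisulpride replicate 2. Fcer1g had 125, 111 and 144 untreated and 113, 78 and 86 with amisulpride, and was lower within each replicate number (-0.46 ± 0.27, limma adjusted p = 0.575). Amisulpride replicate 2, with 74, was the low library for Tyrobp. Trem2, the lipid receptor that signals through DAP12, and Fcgr3, a low-affinity receptor for immunoglobulin G, had log2 fold changes of 0.59 ± 0.49 and 0.35 ± 0.49.

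The 3 chains of C1q, the recognition molecule of the classical complement pathway that macrophages supply, are encoded side by side on chromosome 4 and their log2 fold changes had a median of 0.75 without any call by the fold rule. C1qc (ENSMUSG00000036896, 136889804 to 136893065, minus strand) had 95, 34 and 44 normalised counts untreated and 127, 67 and 125 with amisulpride. It was higher within each replicate number, at 0.95 ± 0.41 (limma unadjusted p = 0.0392, adjusted p = 0.426). C1qb had 44, 35 and 38 untreated and 53, 50 and 109 with amisulpride, so that the groups did not overlap and amisulpride replicate 3 stood apart (0.75 ± 0.36, limma adjusted p = 0.479). C1qa had 159, 38 and 68 untreated and 116, 74 and 54 with amisulpride, and its log2 fold change was 0.05 ± 0.47. In each of the 3 replicate numbers Spi1 was thus lower with amisulpride while C1qc and Adgre1 were higher.

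The NADPH oxidase genes, which produce the oxidative burst of phagocytes, were lower in 4 of 4, with a median of -0.39 and no call by the fold rule. Over all genes tested 49.9% were lower. Only Cybb was lower in all 3 replicate numbers. In number 3 the log2 ratios of Ncf1, Ncf4 and Rac2 were 0.11, 0.00 and 0.34. Cybb, the catalytic subunit gp91phox, had 91, 65 and 83 normalised counts untreated and 51, 33 and 59 with amisulpride. The groups did not overlap, and the log2 fold change was -0.76 ± 0.32 (limma unadjusted p = 0.0364, adjusted p = 0.415). Ncf1 and Ncf4, the cytosolic subunits p47phox and p40phox, and Rac2, the small GTPase that activates the complex, had log2 fold changes of -0.36 ± 0.44, -0.38 ± 0.45 and -0.40 ± 0.34. Ncf1 overlaps Gtf2ird2 on the opposite strand, which had a mean of 9.67 normalised counts. Of 4 partner subunits that are not members, 3 passed the filter and none met the fold rule, with Rac1 as the highest at 1214 to 2033 normalised counts.

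The tetraspanin genes Cd53 and Cd37 differed in opposite directions. Cd53 (ENSMUSG00000040747, chromosome 3, 106759921 to 106790149, minus strand), a pan-leukocyte tetraspanin gene, had 19, 18 and 12 normalised counts untreated and 44, 41 and 41 with amisulpride. The groups were well apart, at 16.3 ± 3.79 untreated and 42 ± 1.73 with amisulpride (SD, n = 3). The log2 fold change was 1.34 ± 0.36 (limma adjusted p = 0.173, or 0.0898 with the replicate block) and lay between 1.14 and 1.45 when each library was left out. Cd37 (ENSMUSG00000030798, chromosome 7, 45233632 to 45239115, minus strand), a tetraspanin gene best known from B cells and also used by myeloid cells, had 21, 20 and 11 normalised counts untreated and 8, 4 and 9 with amisulpride. Its groups did not overlap, but amisulpride replicate 3 was close to untreated replicate 3, and the low values leave a wide error (-1.21 ± 0.54, limma adjusted p = 0.455, or 0.349 with the replicate block). Without any one of the untreated libraries Cd37 no longer passed the filter, and without amisulpride replicate 1 or 2 its unadjusted limma p was 0.0580 or 0.129. The gene shares 13 bases with Tead2 on the opposite strand, which had a mean of 31.5 normalised counts.

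The remaining surface, lysosomal and scavenger genes did not meet the fold rule. Lyz2 had 3046, 1733 and 2188 normalised counts untreated and 3287, 1879 and 1394 with amisulpride. Replicates 1 and 2 were slightly higher and replicate 3 was lower with the drug (log2 fold change -0.14 ± 0.34). Of the 40-base words in the last 500 bases of its transcript, 27.1% also occur in other genes. Its near copy Lyz1 shared the most, so reads may have been divided between them, and Lyz1 was itself at 97 to 286 normalised counts.

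Cd68, a lysosomal glycoprotein gene widely used to mark macrophages, had 210, 119 and 144 normalised counts untreated and 219, 122 and 256 with amisulpride (0.31 ± 0.33). Cd52, a small surface glycoprotein gene of leukocytes, had 260, 99 and 144 untreated and 224, 134 and 315 with amisulpride (0.45 ± 0.39). Both were highest in amisulpride replicate 3, and in both genes the groups overlapped. Msr1, a macrophage scavenger receptor gene, had 503, 139 and 217 untreated and 276, 114 and 224 with amisulpride, and its fold change of -0.37 ± 0.45 became 0.14 without untreated replicate 1. The mannose receptor Mrc1 had a log2 fold change of 0.13 ± 0.39, the pore-forming Mpeg1 of 0.22 ± 0.33, and Plek, a platelet and leukocyte protein kinase C substrate, of 0.69 ± 0.40. Plek shares 796 bases with Cnrip1 on the opposite strand, which had a mean of 109 normalised counts. Aif1, which encodes the calcium-binding protein Iba1, Cd84, a receptor of the SLAM family, and Ms4a6d, a membrane-spanning protein of macrophages, were at 0.70 ± 0.59, 0.38 ± 0.69 and -0.18 ± 0.45.

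The 5 members under the filter were Fcgr2b, Clec7a, Fcgr1, Ly86 and Cd163, and no fold change is given for them. Cd163, the haemoglobin scavenger receptor of resident tissue macrophages, was listed at 0 in all 6 libraries. Clec7a, which encodes the beta-glucan receptor Dectin-1, had 3, 6 and 3 normalised counts untreated and 13, 9 and 13 with amisulpride, which did not overlap. The untreated values were at a few reads each. Fcgr2b, the inhibitory receptor for immunoglobulin G, ranged from 3 to 21, Fcgr1, the high-affinity one, from 0 to 11, and Ly86, a partner of the Toll-like protein CD180, from 0 to 7.

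Within replicate numbers, members lay on both sides of 0 in each number. The median log2 ratio of amisulpride over untreated for the 36 genes was -0.33, -0.22 and 0.15 in numbers 1, 2 and 3, with 25, 21 and 14 genes lower, whereas the medians over all genes tested were 0.00, -0.01 and 0.00. Lower in all 3 numbers were 9 members (Cd14, Cd37, Clec4d, Coro1a, Cybb, Fcer1g, Lcp1, Ptprc and Spi1) of the 36, against 17.8% of all genes tested, and higher in all 3 were 7 (Adgre1, C1qb, C1qc, Cd53, Cd68, Clec4n and Plek), against 16.9%.

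A member was taken to depart from the members' median shift where it differed from the members' median by at least 1 on the log2 scale, in the same direction, in each of the 3 numbers. Cd14 departed downward, with ratios of -1.35, -1.43 and -2.46, or -1.01, -1.21 and -2.61 relative to the median of the respective number. Clec4n, with ratios of 1.83, 0.86 and 2.04, and Cd53, with 1.17, 1.14 and 1.69, departed upward. Of all genes tested 0.817% would depart below these medians and 1.22% above them. With a pseudocount of 5 in place of 1 only Cd53 still departed. Spi1 missed the rule in number 1, where it lay at -0.64 relative to the median. The widest single ratios belonged to other genes, with Cd84 at 2.64 in number 3 and Spi1 at -2.84 in number 2.

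**Figure D4:**
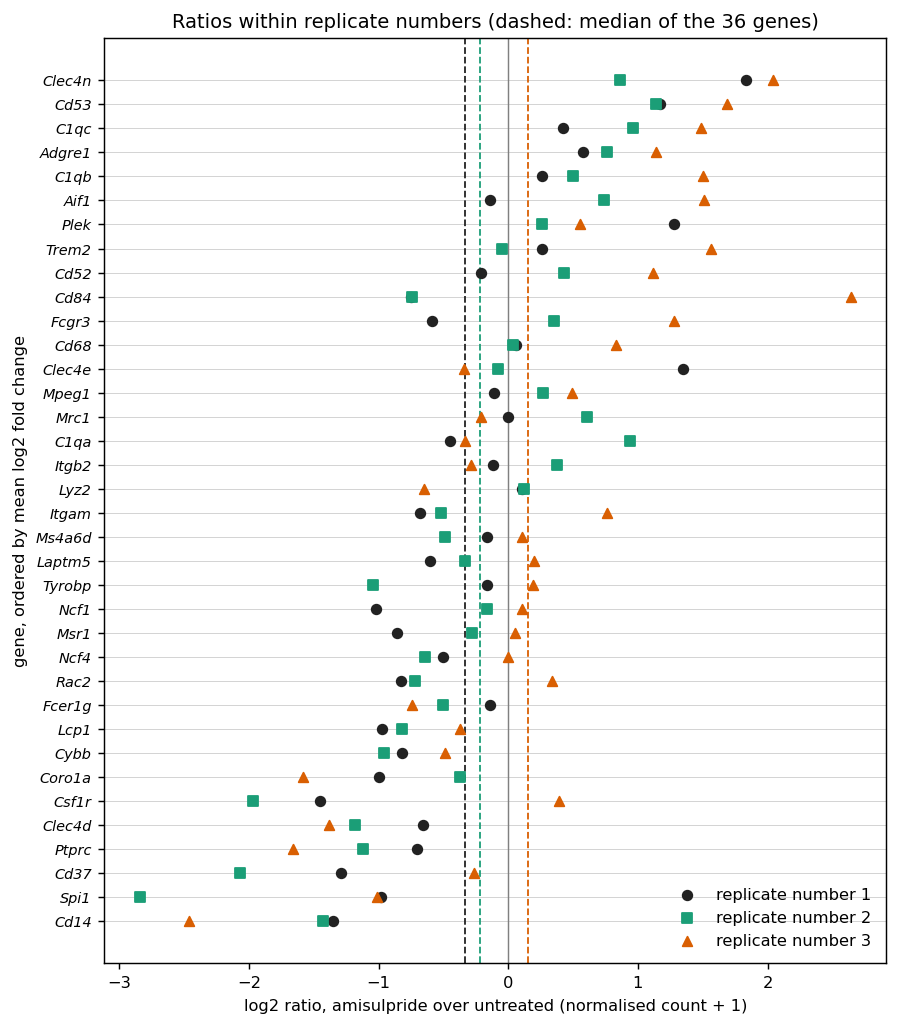
Log2 ratio of amisulpride over untreated within each replicate number (black circles 1, green squares 2, orange triangles 3) for the 36 myeloid genes that passed the filter, ordered by mean log2 fold change, with dashed lines at the members' median of -0.33, -0.22 and 0.15. Cd14 lies at the bottom and Clec4n and Cd53 at the top, with all 3 points on the same side.

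Genes of the same pathways outside the 41 gave the following picture. Of 16 kinases and adaptors downstream of ITAM receptors 11 passed the filter, with a median log2 fold change of -0.78. Of these 10 were lower, against 49.9% of all genes tested, and 6 were lower in all 3 replicate numbers, against 17.8%. By the fold rule 1 was lower and 0 were higher. This was Ptpn6, the phosphatase SHP-1, which had 82, 34 and 41 normalised counts untreated and 36, 20 and 9 with amisulpride (-1.32 ± 0.51, limma adjusted p = 0.357), and which no longer met the rule without untreated replicate 1 (-0.95) or amisulpride replicate 3 (-0.83). Lat2, an adaptor of myeloid and B cells and the highest of the list, had 635, 145 and 139 untreated and 213, 84 and 91 with amisulpride (-0.99 ± 0.55, and -0.27 without untreated replicate 1). Its annotated gene shares 1784 bases with Rfc2 on the opposite strand, which had a mean of 104 normalised counts. Replicate 1 was highest in both groups for 8 of the 11.

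Of 56 further monocyte and macrophage genes 30 passed the filter, with 22 lower, 8 higher and a median of -0.33, where 49.9% of all genes tested were lower. The highest, the lysosomal protease gene Lgmn, ranged from 358 to 947 normalised counts. The fold rule called 2 lower (Irf5, an interferon regulatory factor of macrophages, at -1.81, and Ccr1, a chemokine receptor, at -1.78) and 3 higher. Irf5, whose groups overlapped, met the rule only without amisulpride replicate 1 among the libraries left out in turn, and was at -0.92 without amisulpride replicate 3. The annotated Irf5 gene shares 1045 bases with Tnpo3 on the opposite strand, which had a mean of 305 normalised counts. Ccr1 no longer met the rule without untreated replicate 1 (-1.59), untreated replicate 2 (-1.69) or amisulpride replicate 2 (-1.04). With amisulpride Irf5 and Ccr1 reached the filter's limit of 10 in replicate 1 only, so both passed through their untreated values. Pf4, which encodes platelet factor 4, had 11, 6 and 1 normalised counts untreated and 31, 46 and 63 with amisulpride (3.05 ± 0.64, limma adjusted p = 0.0764, or 0.0111 with the replicate block). Lst1, a small leukocyte protein gene, had 23, 11 and 12 untreated and 43, 43 and 39 with amisulpride (1.46 ± 0.40). Marco, a scavenger receptor gene, had 55, 24 and 25 untreated and 133, 59 and 66 with amisulpride (1.30 ± 0.42, limma adjusted p = 0.256, or 0.0401 with the replicate block), and did not meet the fold rule without amisulpride replicate 1 (0.94). The untreated and amisulpride values of Pf4, Lst1 and Marco did not overlap. Among the 30 genes the groups did not overlap in 4 that were higher and 2 that were lower, against 7.80% and 8.66% of all genes tested.

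Osteoclast genes, from the lineage that shares its precursors with macrophages, passed the filter in 12 of 15 cases and had a median of -0.79. Of these 11 were lower, against 49.9% of all genes tested, and 6 were lower in all 3 replicate numbers, against 17.8%. The fold rule called 3 lower. Acp5, the tartrate-resistant acid phosphatase, had 473, 343 and 752 normalised counts untreated and 90, 58 and 336 with amisulpride (-2.03 ± 0.54, limma adjusted p = 0.165, or 0.00136 with the replicate block). Mmp9, a gelatinase and the highest of the list, had 2658, 992 and 2581 untreated and 638, 230 and 1337 with amisulpride (-1.70 ± 0.56, limma adjusted p = 0.265, or 0.00371 with the block). It missed the fold rule without untreated replicate 1 (-1.46) or amisulpride replicate 2 (-1.04). Dcstamp, the fusion protein of osteoclasts, had 63, 12 and 24 untreated and 3, 0 and 20 with amisulpride (-2.65 ± 0.99), so that replicate 3 differed little, and it missed the rule without untreated replicate 1 (-2.04) or amisulpride replicate 2 (-1.59). Replicate 1 was highest in both groups for 2 of these 12 genes.

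Of 13 dendritic cell and MHC class II genes 4 passed the filter and none met the fold rule, with a median of -0.38. The highest, H2-DMb1 of peptide loading, ranged from 70 to 346 normalised counts, and Flt3, Clec9a and Cd209a were listed at 0 throughout. Among 12 ligands of myeloid receptors that stromal cells can supply, 10 passed, with a median of 0.05, and Thbs1, a ligand of CD47 and CD36, was the highest at 5885 to 19191 normalised counts. Ccl2, the monocyte chemoattractant, had 10066, 13080 and 9879 normalised counts untreated and 6767, 4947 and 3767 with amisulpride (-1.12 ± 0.30, limma adjusted p = 0.173), the only one of the 10 that met the fold rule, which it missed without untreated replicate 2 (-0.99) or amisulpride replicate 3 (-0.92). The fibroblast markers, with Col1a1 as the highest at 10814 to 35599 normalised counts, had a median of 0.14 over 25 genes, 1 of which met the fold rule (S100a4, also made by macrophages, -1.31 ± 0.32, limma adjusted p = 0.117, or 0.0459 with the replicate block). Near copies and family neighbours of the members passed in 12 of 25 cases, with a median of 0.06 and none by the fold rule.

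Among the protein-coding genes outside the set whose centred log2 values over the 6 libraries lay nearest to the median profile of the members were Trmu, Gpn2, Sgsh, Atp6v1f, Nr1d1, Ercc5, Chchd2, Fam177a and Tfe3, at root mean square distances of 0.09 to 0.12. None of them was in a list used here. Gpn2, for example, had 85, 42 and 55 normalised counts untreated and 75, 43 and 52 with amisulpride.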

How the data were processed

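Per the labels, the 6 libraries were 3′ mRNA libraries (QuantSeq) of hTNFtg SFs sequenced on an Ion Proton. The authors mapped reads to mm10 with TopHat2 and then Bowtie2, counted reads per gene with GenomicRanges and normalised with DESeq through metaseqr with versions, and whether counting used the strand, not given in the sources used here. What the authors deposited is a score: a normalised read count, rounded, for which no count test was run. It was taken as scaled with a single factor for the whole library. In untreated replicate 1 no step of a single read was found, so this could not be checked there. Another 12 columns of values per library and the authors' own fold changes and p-values were not used.

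Groups were compared with limma 3.58.1 (R 4.3.3) on log2(normalised count + 1), two-sided, with a variance trend and Benjamini-Hochberg adjustment over 12614 genes. The cutoffs of the fold rule follow the study's methods, where the p came from DESeq and not from limma. The members and lists were chosen with earlier results of these data known, so they carry no p of their own. Values per library were printed for members past the fold rule, with groups that did not overlap, departing from the members' median shift, among the 10 with the highest mean, or in a list of defining markers, and, of each other list, for genes past a rule (at most 5) and for the highest gene. Values of C1qa, C1qc and Coro1a were printed outside this rule. Of the 10 genes nearest to the members' profile, 1 is not reported here.

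The deviations from group means of same-numbered libraries correlated at 0.23, 0.24 and 0.20 over all genes tested, and those of differently numbered ones at -0.15 to -0.08, so replicate numbers were taken to pair the libraries. The labels do not say what the numbers mark. The step of a single read was estimated by maximum likelihood, and both it and the limma fit were tested on simulated data. Alternatives were a pseudocount of 5, no filter, a filter at 20, other scalings, the block and leaving out each library.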

Additional observations from a re-analysis of the deposited data

How the results depend on the processing

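The number of genes over the whole table with an adjusted limma p under 0.05 was 36, and it was 57 with a pseudocount of 5, 57 with no filter, 66 with quantile normalisation, 263 with the replicate block, and 0 to 120 when each library was left out. The number meeting the fold rule was 719, and 1313 with no filter. The members' median log2 fold change of -0.14 ranged from -0.41 to 0.22 when libraries were left out. It reversed to 0.22 without untreated replicate 1 and to 0.05 without amisulpride replicate 2. The log2 difference of the summed level ranged from -0.41 to 0.16, and reversed to 0.16 and 0.06 in the same cases. With a pseudocount of 5 there were 0 members departing below the members' median shift and 1 above. Without untreated replicate 1, Itgam (0.38), Laptm5 (0.27), Lyz2 (0.07) and Msr1 (0.14) reversed. Without amisulpride replicate 2, Itgam (0.30), Laptm5 (0.13), Msr1 (0.01) and Tyrobp (0.07) reversed, and Lyz2 (0.14) did so without amisulpride replicate 3. With libraries left out in turn the fold change ranged from -0.41 to 0.38 for Itgam, from -0.58 to 0.27 for Laptm5, from -0.48 to 0.14 for Lyz2, from -0.78 to 0.14 for Msr1 and from -0.57 to 0.07 for Tyrobp. Of 235 values for single members under these alternatives, 205 kept their direction and their side of the fold rule. Of the others 17 no longer met the rule, 4 newly met it and 9 reversed. Another 5 could not be tested because Cd37 or Ptprc fell under the filter. These values cover only the members selected by the printing rule given above, and most of those did not meet the fold rule in the main setting. The replicate block brought Cd14, Spi1 and Clec4n to an adjusted p under 0.05, took Cd37 out of the fold rule (limma unadjusted p = 0.0515) and brought Ptprc into it (limma unadjusted p = 0.0360). The cause of these changes was not tested. The 5 genes under the filter were not tested in the main setting. With no filter 40 members were tested, and 4 met the fold rule lower and 3 higher with amisulpride, with 0 at an adjusted limma p under 0.05.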
